A study of Mus musculus with 12 samples.

Results

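The 9 genes described here, Oas1a, Oas1b, Oas1c, Oas1e, Oas1g, Oas2, Oas3, Oasl1 and Oasl2, are the oligoadenylate synthetases and synthetase-like genes of the mouse that were taken by gene name from tables of 55487 genes. All 9 passed the filter on low values in every comparison. Oas1f was not analysed here. The RNA came from back skin wounds of male C57BL/6JNarl mice aged 6 weeks, and each mouse carried 2 wounds. Every wound received 200 µL of a 25% Pluronic F127 gel once a day. In the sham group the gel was given alone, and in the CAP group it held 10 µM capsaicin (CAP), the pungent compound of chili peppers. Wounds were collected at day 3 or day 6, which gives 4 groups of 3 libraries. The sources used here do not say which libraries share a mouse. The n is therefore the number of libraries, and p-values measure the spread between them, which may in part be that between wounds of the same animal. Values are TPM, the share that a gene takes of all transcripts of its library, corrected for gene length.

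Oligoadenylate synthetases are enzymes of the innate antiviral response that are switched on by interferons. When they bind double-stranded RNA, the active members join ATP into short oligoadenylates, which act as a second messenger in the infected cell. The mouse carries several copies of Oas1. Oas1a and Oas1g encode active enzymes, while most of the other Oas1 copies are known to lack the activity. Oas2 and Oas3 hold more than a single synthetase unit per protein and are active. Oasl1 and Oasl2 carry ubiquitin-like domains, and Oasl1 is known as a brake on the translation of Irf7, the master regulator of type I interferon genes.

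The 9 genes lie in 2 groups on chromosome 5 (GRCm38, coordinates as in the deposited tables). Oasl2 (114896936 to 114912234, plus strand) and Oasl1 (114923240 to 114937915, plus strand) are neighbours. The other 7 genes lie between 120730333 and 120907521, in the order Oas2, Oas3, Oas1e, Oas1c, Oas1b, Oas1g and Oas1a. In this stretch Oas1b is the plus-strand gene and the other 6 are on the minus strand. Oas1b starts 121 bases past the end coordinate of Oas1c (120812514), so the starts of these genes face away from each other.

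The interferon-stimulated response element, the DNA site through which type I interferon acts on many genes, has the core GAAANNGAAA, or TTTCNNTTTC on the other strand. RefSeq promoter windows (GRCm38.p6, 250 bases before to 50 bases after the start) were at hand for 6 of the 9 genes, and 4 of these hold the core on either strand. It is in 3.44% of all 32851 promoter windows. The 4 matches are shown because they tell the genes of the family that hold the core from those that do not. Capitals mark the core, overlapping matches merged, and each stretch is written 5′ to 3′ on the strand of its gene, minus for all 4, at chr5:120907526-120907560 for Oas1a, chr5:120887614-120887646 for Oas1g, chr5:120777710-120777749 for Oas3 and chr5:120812598-120812643 for Oas1c.
Oas1a: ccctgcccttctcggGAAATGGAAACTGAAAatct
Oas1g: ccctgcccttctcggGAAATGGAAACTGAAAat
Oas3: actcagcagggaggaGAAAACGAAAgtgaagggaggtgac
Oas1c: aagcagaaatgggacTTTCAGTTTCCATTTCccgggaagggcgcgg

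The first base in capitals is 20 bases before the start in Oas1a, 18 in Oas1g, 75 in Oas3 and 114 in Oas1c. The 16 bases in capitals before Oas1c are the reverse complement of the 16 bases before Oas1a and Oas1g. They lie 7 to 22 bases before the start of Oas1b, on the strand of that gene. The windows of Oasl1 and Oasl2 hold no match to these letters, and the windows of Oas1b, Oas1e and Oas2 were not at hand.

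Reads from near-identical copies can be split between genes by the authors' quantification. Of the 31-base stretches in the transcripts of Oas1a, 68.8% are shared with other genes, almost all of them with Oas1g, and for Oas1g the share is 55.1%. Values of Oas1a and Oas1g are therefore less certain each alone than summed. For Oas1c the share is 25.2% and for Oas1e 24.3%, in both with the other as the main partner. Of the stretches of Oas1c, 11.8% are shared with Oas1e, and of those of Oas1e, 15.7% with Oas1c. The share is 6.70% for Oas1b, 2.27% or less for Oas3, Oasl1 and Oasl2, and 0 for Oas2. How strand was treated is not stated in the sources at hand, and Oas1e and Oas1c overlap Gm43069 on the other strand, which was listed at 0 in 10 libraries and reached at most 0.151 TPM. Oasl1 likewise overlaps Gm13822 and Oas2 overlaps Gm43068, each on the other strand.

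The 12 libraries were alike in the number of genes that reached 0.3 TPM and in mitochondrial share, but not in cell type markers. Between 18533 and 19325 genes per library reached 0.3 TPM, the leading 10 genes took up 8.27% to 14.1% of the TPM, and mitochondrial genes 5.21% to 6.56%. Keratinocyte markers summed to between 32606 and 99126 TPM per library, so the defining markers of skin were present. CAP day 6 library 2 stood apart in cell type markers, with the highest Krt10 (40801 TPM), the lowest neutrophil sum (281 TPM) and the lowest endothelial sum (85.0 TPM). The share of its leading 10 genes, 14.1%, was the highest of the 12 libraries. The labels name no batch, and the day of a wound and the time of its collection cannot be told apart.

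Summed over the 9 genes, the family was most abundant in the sham group at day 3. The sum was 308, 249 and 292 TPM in sham libraries 1 to 3 at day 3, and 167, 63.5 and 111 TPM in the CAP libraries of that day. At day 6 it was 139, 117 and 95.5 TPM in the sham group and 108, 58.5 and 62.3 TPM in the CAP group. The sham libraries of day 3 lay above all others, and at day 6 the groups overlapped through CAP library 1 alone. The means were 283 ± 30.5 and 114 ± 52.0 TPM at day 3, and 117 ± 22.0 and 76.3 ± 27.5 TPM at day 6, for sham and CAP (SD, n = 3).

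**Figure D1:**
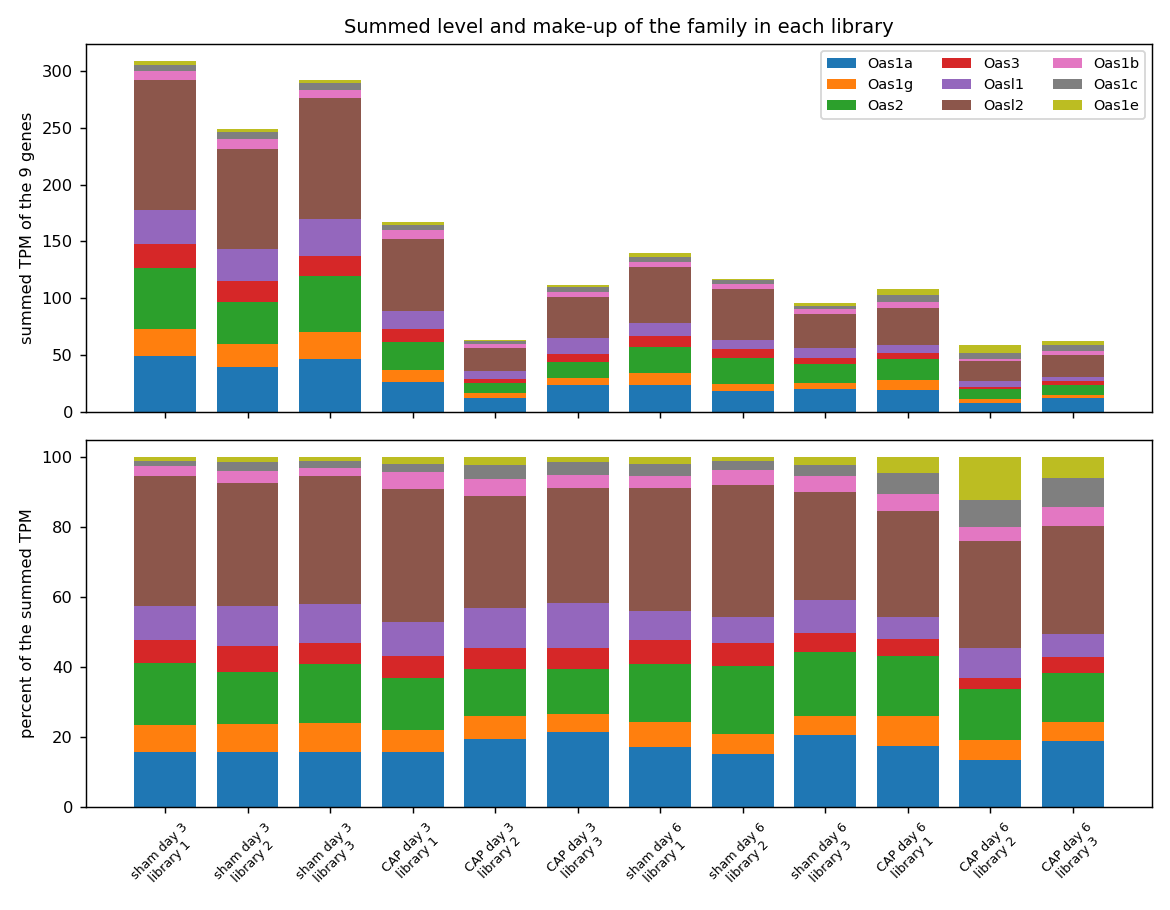
Summed TPM of the 9 genes in each library (top, stacked by gene) and the percent of that sum held by each gene (bottom). Sham libraries of day 3 reach 249 to 308 TPM, and in the CAP libraries of day 6 the bands of Oas1c and Oas1e are wider than in the other groups, with Oas1e at 4.50% to 12.2% of the sum.

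In the sham group at day 3 the genes ranked, by mean TPM, Oasl2, Oas2, Oas1a, Oasl1, Oas1g, Oas3, Oas1b, Oas1c and Oas1e. The ranges of Oas2 and Oas1a overlapped, as did those of Oas1g and Oas3, and all other neighbours in this order lay apart. Oasl2 held the most TPM of the 9 genes in each of the 12 libraries, with group means of 30.6% to 36.2% of the sum. In the CAP group at day 6 Oasl2, Oas1a and Oas2 came first. Oas1c, Oas1g, Oas1e and Oasl1 had means of 5.42, 5.31, 5.24 and 5.23 TPM, with overlapping ranges, and Oas3, ninth in that group, had 3.35 TPM.

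Among the active enzymes, Oas1a was at 48.9, 39.6 and 46.3 TPM in the sham libraries and 26.4, 12.4 and 23.9 TPM in the CAP libraries of day 3. At day 6 Oas1a was at 24.0, 18.02 and 19.6 TPM with gel alone and 18.9, 7.98 and 11.8 TPM with CAP. The groups lay apart at day 3, and at day 6 CAP library 1 fell inside the sham range.

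Oas1g, the copy nearest to Oas1a in sequence, was at 23.9, 19.8 and 24.3 TPM in the sham group and 10.5, 4.22 and 5.70 TPM in the CAP group at day 3. The day 6 values of Oas1g were 9.88, 6.66 and 5.42 TPM for sham and 9.32, 3.23 and 3.37 TPM for CAP. At day 3 the lowest sham library was above the highest CAP library, and at day 6 CAP libraries 2 and 3 were below all sham libraries while CAP library 1 was close to the highest of them. Summed with Oas1a, Oas1g gave 72.8, 59.4 and 70.5 TPM (sham) and 37.0, 16.6 and 29.7 TPM (CAP) at day 3, and 33.8, 24.7 and 25.0 TPM against 28.3, 11.2 and 15.1 TPM at day 6.

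Oas2, a large synthetase, was at 54.2, 37.2 and 49.1 TPM with gel alone and 24.9, 8.50 and 14.4 TPM with CAP at day 3. Its day 6 values were 23.4, 22.7 and 17.4 TPM in sham wounds and 18.4, 8.50 and 8.83 TPM in CAP-treated wounds. CAP library 1 of day 6 lay above the lowest sham library, and the other CAP libraries lay below all 3.

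Oas3, the longest synthetase of the family, was at 20.6, 18.2 and 17.8 TPM in sham wounds and 10.6, 3.79 and 6.59 TPM in CAP-treated wounds at day 3. It was at 9.37, 7.74 and 4.97 TPM for sham and 5.36, 1.90 and 2.77 TPM for CAP at day 6. The 2 groups of day 6 overlapped only between sham library 3 and CAP library 1.

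Oasl2 had the highest level of the family, with 114, 87.3 and 107 TPM for sham and 63.7, 20.4 and 36.4 TPM for CAP at day 3. The values of Oasl2 at day 6 were 49.1, 44.4 and 29.4 TPM and 32.8, 17.8 and 19.2 TPM. Again CAP library 1 of day 6 was the library that reached into the sham range.

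Oasl1 was at 30.0, 28.9 and 32.1 TPM in the sham libraries and 16.1, 7.20 and 14.4 TPM in the CAP libraries of day 3. At day 6 Oasl1 was at 11.6, 8.52 and 9.03 TPM for sham and 6.50, 5.04 and 4.15 TPM for CAP. Here the groups lay apart on both days, and the sham libraries of day 3 differed by less than in Oasl2 or Oas2.

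Oas1b, whose truncated form in common laboratory strains is linked to susceptibility to flaviviruses, was at 8.29, 8.75 and 7.05 TPM for sham and 7.70, 2.97 and 4.12 TPM for CAP at day 3. It was at 4.53, 4.93 and 4.36 TPM for sham and 5.26, 2.31 and 3.30 TPM for CAP at day 6. In both CAP groups library 1 was within or above the sham range and the other libraries were below it.

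Oas1c, one of the further Oas1 copies, was at 5.004, 6.43 and 5.59 TPM for sham and 4.06, 2.70 and 3.99 TPM for CAP at day 3. At day 6 Oas1c was at 4.65, 2.98 and 3.16 TPM for sham and 6.54, 4.59 and 5.14 TPM for CAP, the opposite order. The groups lay apart at day 3 and overlapped at day 6 only between sham library 1 and CAP library 2.

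Oas1e, its neighbour, was at 3.10, 3.18 and 3.22 TPM for sham and 3.24, 1.34 and 1.64 TPM for CAP at day 3. The sham libraries of day 6 had 2.89, 1.26 and 2.08 TPM of Oas1e and the CAP libraries 4.86, 7.11 and 3.76 TPM. All 3 CAP libraries of day 6 were above each of the other 9 libraries.

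**Figure D2:**
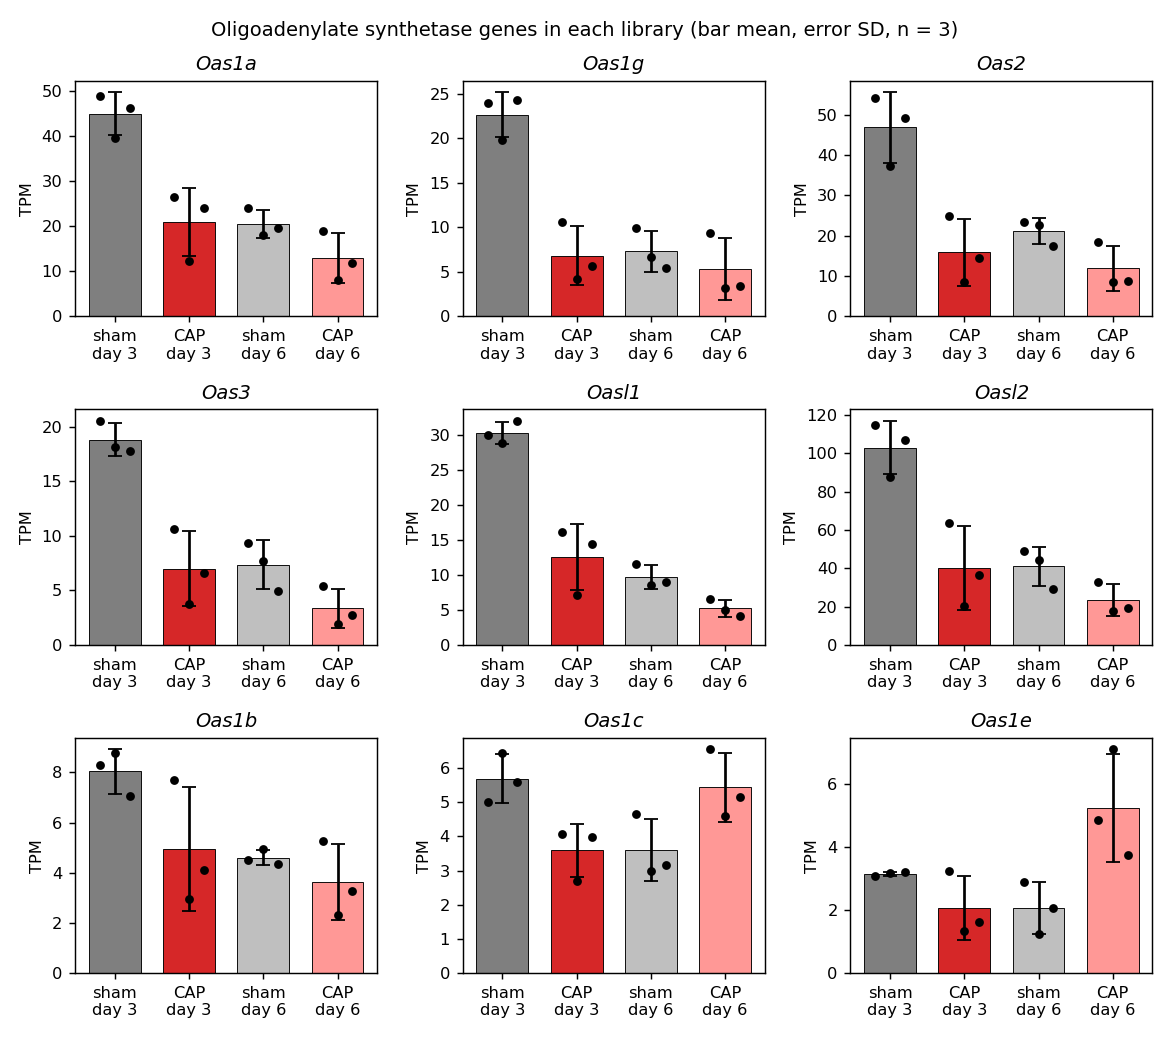
TPM of each of the 9 genes in the 4 groups. Points are libraries, bars the mean and error bars the SD (n = 3). In 8 of the 9 genes the highest mean is that of the sham group of day 3, and in Oas1e it is that of the CAP group of day 6, at 5.24 ± 1.71 TPM.

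In 3 of the 4 groups the same library was the highest for most of the genes. In the CAP group of day 3, library 1 was the highest and library 2 the lowest for 9 of the 9 genes. At day 6, library 1 was the highest of its group for 8 genes in the sham group and for 8 in the CAP group, the exceptions being Oas1b and Oas1e, respectively. In the sham group of day 3 the highest library was library 1 for 4 genes, library 2 for 2 and library 3 for 3. That group was tight, with a median ratio of 1.23 between its highest and lowest library. That ratio was 2.50 in the CAP group of day 3, 1.56 in the sham group and 2.17 in the CAP group of day 6.

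At day 6, CAP-treated wounds were compared with sham wounds to see whether the family differed at the later of the 2 times. Oas3 was lower with CAP, with means of 3.35 ± 1.80 against 7.36 ± 2.22 TPM, and Oas1e was higher, with 5.24 ± 1.71 against 2.07 ± 0.814 TPM (SD, n = 3). These 2 of 9 genes passed the threshold of the study, an unadjusted p under 0.05 and at least 2-fold. Among all 18323 genes tested, 3.8% passed it, 2.34% lower and 1.46% higher. On the scale log2(TPM + 0.1), on which differences of low genes are understated, the difference was −1.19 for Oas3 (SE 0.40) and 1.32 for Oas1e (SE 0.36). By limma with the Benjamini-Hochberg adjustment over all genes, adjusted p was 0.226 for Oas3 and 0.209 for Oas1e. None of the 18323 genes had an adjusted p under 0.05 at day 6, while 19.2% had an unadjusted p under 0.05. In bulk RNA, fewer cells that express a gene and less RNA per cell cannot be told apart.

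Short of 2-fold, 4 further genes were lower at day 6 with an unadjusted p under 0.05. They were Oasl1 (log2 difference −0.89, SE 0.21, adjusted p = 0.206 by limma), Oas2 (−0.91, SE 0.31), Oasl2 (−0.83, SE 0.28) and Oas1a (−0.74, SE 0.30), with adjusted p of 0.226 to 0.249 for the last 3. Such a p was reached in that direction by 5 of the 9 genes and by 12.5% of all genes. Oas1c had a log2 difference of 0.59 (95% interval 0.03 to 1.15), above 0 like that of Oas1e, and 6.67% of all genes were higher with such a p. Oas1g (−0.59, 95% interval −1.63 to 0.44) and Oas1b (−0.41, −1.12 to 0.29) were not separated from 0. The median log2 difference of the 9 genes was −0.74, beside −0.12 for all genes, and 7 of the 9 were below 0, as were 65.7% of all genes. The groups did not overlap for Oasl1 (lower) and Oas1e (higher), where 18.0% of all genes lay apart with CAP lower and 8.01% with CAP higher. The exact permutation test gave p = 0.1 for these genes, the smallest p that 3 libraries against 3 allow, and 0.2 to 0.4 for the other 7.

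Single libraries set the count at day 6. Oas1e passed the threshold without any one of the 6 libraries, with log2 differences of 1.02 to 1.59. Oas3 lost its call without sham library 1 (−0.998), sham library 2 (−1.13), CAP library 2 (−0.87) or CAP library 3 (−1.13). Without sham library 3, Oas2 (−1.04) and Oasl2 (−1.06) passed as well, which gave 4 genes. Without CAP library 1, the library with the highest level of 8 genes in its group, 7 of the 9 genes passed, Oas1a (−1.06), Oas1g (−1.08), Oas2 (−1.27), Oas3 (−1.59), Oasl1 (−1.06) and Oasl2 (−1.11) lower and Oas1e (1.35) higher. Over the whole table, 697 genes passed with all 6 libraries and 311 to 1483 when single libraries were left out. The sum of Oas1c and Oas1e, which share part of their sequence, was 7.54, 4.24 and 5.24 TPM in sham and 11.4, 11.7 and 8.89 TPM in CAP-treated wounds. The difference of the sum was 0.93 (SE 0.24, adjusted p = 0.206), short of 2-fold, and the sum of Oas1a and Oas1g differed by −0.70 (SE 0.33, adjusted p = 0.289).

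**Figure D3:**
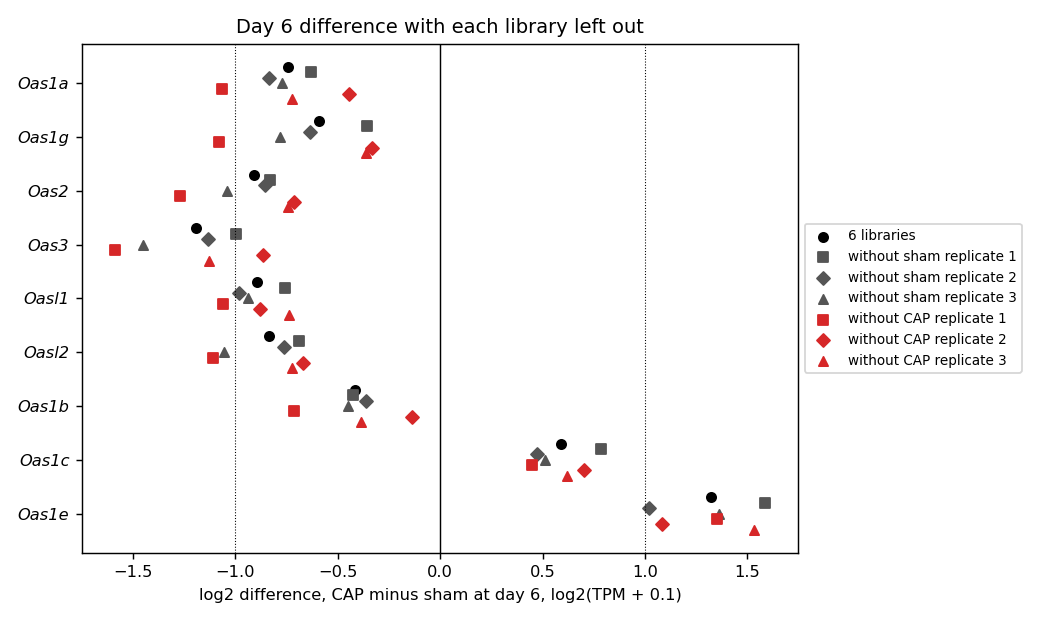
Log2 difference between CAP and sham at day 6 for each gene, with all 6 libraries (black) and without each library in turn (grey for sham, red for CAP). Dotted lines mark 2-fold. Oas1e stays to the right of 1 (1.02 to 1.59), and Oas3 ranges from −1.59 without CAP library 1 to −0.87 without CAP library 2.

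Marker genes of several cell types also differed at day 6. Keratinocyte markers summed to 32606 to 39742 TPM in sham and 48556 to 99126 TPM in CAP-treated wounds, and 2 of the 10 markers, Krt1 and Krt10, keratins of the differentiating epidermis, passed the threshold higher. Krt10 was at 7432, 7490 and 8321 TPM in the sham libraries and 19544, 40801 and 16989 TPM in the CAP libraries. In the same order of libraries, Oas1e was at 2.89, 1.26 and 2.08 TPM in sham and 4.86, 7.11 and 3.76 TPM in CAP-treated wounds. Monocyte and macrophage markers summed to 7235 to 10083 TPM in sham and 4256 to 9432 TPM in CAP-treated wounds, with 2 of 10 lower, Ccr2 and Itgam. Endothelial markers summed to 264 to 360 and 85.0 to 221 TPM, with 3 of 8 lower. Of the neutrophil markers 8 were tested and 0 passed (sums of 1772 to 3323 and 281 to 2676 TPM). All 8 were below 0, with a median log2 difference of −1.22, beside −0.12 for all genes. Of the T and NK cell markers 9 were tested and 0 passed (57.0 to 104 and 70.6 to 87.8 TPM). Pdpn, 1 of 8 fibroblast markers, and Myh4, 1 of 8 skeletal muscle markers, were lower, and 0 of 9 dendritic cell and 0 of 5 erythroid markers passed. The 5 erythroid markers were all below 0, with a median of −1.12 (sums of 2114 to 5623 TPM in sham and 716 to 3185 TPM in CAP-treated wounds). No marker in these lists was at 0 in all libraries. The part of cell make-up in the differences of the 9 genes was not tested.

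From day 3 to day 6 in sham wounds, the course of the family with gel alone, 6 of the 9 genes fell past the threshold and none rose. They were Oas1a, Oas1g, Oas2, Oas3, Oasl1 and Oasl2. Among all 18368 genes, 1.61% fell past the threshold. Oasl1 fell from 30.3 ± 1.60 to 9.72 ± 1.66 TPM (log2 difference −1.64, SE 0.14, adjusted p = 0.00985 by limma), and Oas1g fell from 22.6 ± 2.51 to 7.32 ± 2.30 TPM (−1.65, SE 0.22, adjusted p = 0.0193). Oasl2 fell from 103 ± 14.01 to 40.9 ± 10.3 TPM (−1.35, SE 0.20, adjusted p = 0.0254), and Oas3 from 18.8 ± 1.51 to 7.36 ± 2.22 TPM (−1.39, SE 0.22, adjusted p = 0.0317). The log2 differences of Oas2 (−1.14, adjusted p = 0.0272) and Oas1a (−1.13, adjusted p = 0.0146) were smaller.

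Oas1b was lower at day 6 in sham wounds as well, by less than 2-fold (−0.79, SE 0.14), with an adjusted p of 0.0413, so that 7 of the 9 genes had an adjusted p under 0.05 and a negative difference. That was so for 1.14% of all genes. Oas1c (−0.66, adjusted p = 0.181) and Oas1e (−0.66, adjusted p = 0.342) did not pass. All 9 genes had sham libraries of day 6 below each sham library of day 3, as had 10.6% of all genes, and the exact permutation p was 0.1 for each, the smallest possible. The median log2 difference was −1.14, beside 0.00 for all genes. Leaving out any one of the 6 libraries left 6 genes past the threshold. Summed, Oas1a and Oas1g differed by −1.29 (adjusted p = 0.0146). Over the same days 6 of 8 endothelial markers were higher past the threshold (sums of 101 to 131 TPM at day 3 and 264 to 360 TPM at day 6), as were 5 of 5 erythroid markers tested (514 to 753 and 2114 to 5623 TPM), and Ly6c2, 1 of 10 monocyte and macrophage markers, was lower. Of the 8 skeletal muscle markers, Myh4 was lower past the threshold and all 8 were below 0, with a median of −0.76 (sums of 4322 to 6359 and 2721 to 3938 TPM). Of the 10 keratinocyte markers, Krt6a was lower past the threshold and 9 were below 0, with a median of −0.39 (44314 to 63695 and 32606 to 39742 TPM). The dendritic cell marker Bst2 was lower, the T cell marker Cd4 and the neutrophil marker Mmp8 were higher, and 0 of 8 fibroblast markers passed. What share of the differences goes with these markers was not tested.

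In CAP-treated wounds the course from day 3 to day 6 was mixed. Oasl1 fell from 12.6 ± 4.74 to 5.23 ± 1.19 TPM (log2 difference −1.19, SE 0.33), and Oas1e rose from 2.07 ± 1.02 to 5.24 ± 1.71 TPM (1.35, SE 0.38). These 2 of 9 genes passed the threshold, as did 2.79% of all 18202 genes tested, 1.52% lower and 1.27% higher. Adjusted p was 0.319 for Oasl1 and 0.326 for Oas1e by limma. Oas1c was at 3.58 ± 0.763 and 5.42 ± 1.005 TPM, a difference of 0.59 (95% interval 0.04 to 1.14). Oas3 had a difference of −1.05 (95% interval −2.20 to 0.10) and Oasl2 of −0.69 (−1.72 to 0.34). Those of Oas1a, Oas1g, Oas1b and Oas2 were −0.71, −0.43, −0.40 and −0.38, with intervals that span 0. The interval of Oas2, −1.46 to 0.71, also holds its sham difference of −1.14. The median over the 9 genes was −0.43, beside −0.05 for all genes.

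The groups of the CAP course lay apart for Oasl1 (lower at day 6, with 9.63% of all genes) and for Oas1c and Oas1e (higher at day 6, with 8.05% of all genes), each with an exact permutation p of 0.1. For the other genes that p was 0.2 to 0.6. The CAP libraries of day 3 spread widely, and they moved the count. Without library 1 of day 3 Oasl1 lost its call (−0.97) and Oas1e alone passed, while without library 2 of day 3 Oas1a (−1.05), Oas3 (−1.43) and Oasl2 (−1.10) passed too, 5 genes in all. Without CAP library 1 of day 6 it was 4, with Oas1a (−1.03) and Oas3 (−1.45) added. Over all genes tested, calls numbered 507 with every library and 382 to 886 when single libraries were left out. Oas1c and Oas1e summed differed by 0.93 (SE 0.24, adjusted p = 0.301) and did not reach 2-fold. Krt1 and Krt10 were higher at day 6 past the threshold and Krt6a and Krt17 lower, 4 of 10 keratinocyte markers, whose sums were 35239 to 65898 TPM at day 3. T and NK cell markers were higher in 4 of 9 (28.7 to 37.2 TPM at day 3 and 70.6 to 87.8 TPM at day 6). In the neutrophil list 3 of 7 were lower (1890 to 4877 and 281 to 2676 TPM). Of the monocyte and macrophage markers 2 of 10 were lower, Fcgr1 and Itgam (4903 to 10509 and 4256 to 9432 TPM). Myh4, 1 of 8 skeletal muscle markers, was lower too. How far these markers go with the 9 genes was not tested.

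At day 3, the earlier of the sampled days, 6 of the 9 genes were lower past the threshold in CAP-treated than in sham wounds. Among all 18330 genes, 1.16% were lower past it. The 6 were Oas1g (log2 difference −1.82, SE 0.32), Oas2 (−1.67, SE 0.37), Oas3 (−1.53, SE 0.34), Oasl2 (−1.50, SE 0.38), Oasl1 (−1.34, SE 0.29) and Oas1a (−1.17, SE 0.28). As ratios of mean TPM, Oas1g was 3.32-fold and Oas1a 2.15-fold lower. Oas1b (−0.80, SE 0.33), Oas1e (−0.69, SE 0.32) and Oas1c (−0.66, SE 0.21) did not reach 2-fold. Adjusted p by limma was 0.500 to 0.796 over the 9 genes, and none of the genes that were lower at day 3, in the whole table, had an adjusted p under 0.05, while 5.14% had an unadjusted p under 0.05. In 7 of the 9 genes the CAP libraries lay below all sham libraries, as in 8.75% of all genes, with an exact permutation p of 0.1. The median was −1.34, beside −0.05 for all genes. Without CAP library 2 the calls of Oas1a (−0.83) and Oasl1 (−0.99) were lost and 4 genes were left. Without CAP library 1, Oas1b (−1.17) and Oas1e (−1.04) passed and 8 genes were called. Over the whole table, calls in either direction went from 290 to 204 without CAP library 2 and to 510 without CAP library 1.

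Markers at day 3 that passed the threshold included Ccr2 and Ly6c2, 2 of 10 monocyte and macrophage markers, which were lower with CAP while the list summed to 4222 to 5912 TPM in sham and 4903 to 10509 TPM in CAP-treated wounds. Ccr2 and Ly6c2 mark inflammatory monocytes. Of the erythroid markers 5 of 5 tested were higher with CAP (514 to 753 and 2357 to 2804 TPM). Of the dendritic cell markers 1 of 9 was lower, Bst2, which is itself a known interferon-stimulated gene, and of the T and NK cell markers 2 of 9 were lower. The list of keratinocyte markers had 0 of 10 past the threshold. Of the neutrophil markers 1 of 7 was higher, Mmp8 (log2 difference 1.99), and the median of the 7 was −0.04. Fibroblast, skeletal muscle and endothelial markers had 0 of 8 each past the threshold, with medians of −0.48, −0.54 and 0.00, beside −0.05 for all genes. Their part in the day 3 differences was not tested.

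**Figure D4:**
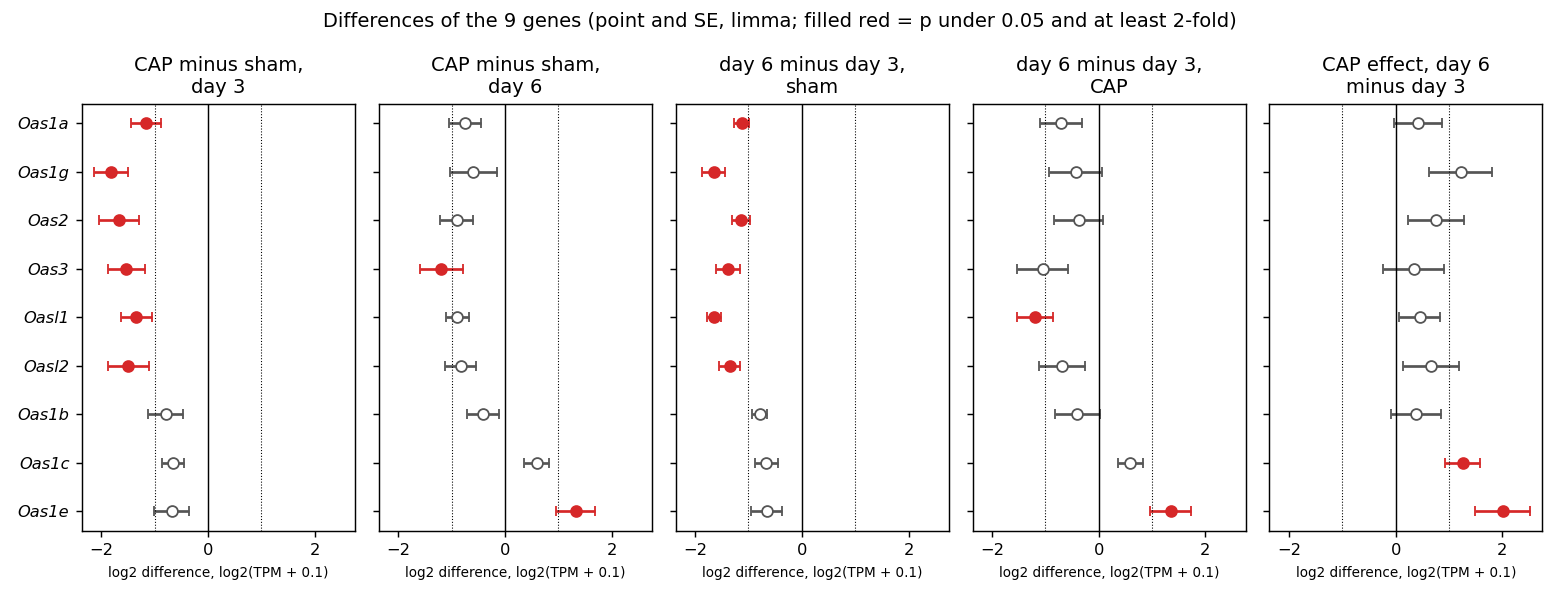
Log2 differences of the 9 genes in the 4 comparisons of groups and, in the last panel, the CAP difference of day 6 minus that of day 3, with SE from limma. Filled red points passed the threshold and dotted lines mark 2-fold. At day 3 and in the sham course all 9 points lie below 0, and in the last panel all 9 lie above 0, with Oas1e at 2.01 and Oas1c at 1.25.

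The CAP effect was then compared between the days, using all 12 libraries. For Oas1e the difference between the effects was 2.01 (SE 0.51) and for Oas1c it was 1.25 (SE 0.32), both past the threshold, with an adjusted p of 0.428 by limma. Of all 20267 genes tested, 2.18% passed it in this direction, and none had an adjusted p under 0.05 in either, with 11.3% at an unadjusted p under 0.05. The CAP difference of both genes was below 0 at day 3 and above 0 at day 6, and the difference between the days passed the threshold whichever of the 12 libraries was left out. Oas1g had a difference of 1.22 (95% interval −0.08 to 2.53). The differences of Oas2 (0.76), Oasl2 (0.66), Oasl1 (0.45), Oas1a (0.42), Oas1b (0.39) and Oas3 (0.34) had intervals that span 0, so for these genes the day 3 and day 6 effects were not shown to differ. Without CAP library 1 of day 3, 5 genes passed, with Oas1g (1.59), Oas2 (1.15) and Oasl2 (1.07) added. Calls among all genes numbered 994 with the 12 libraries and 657 to 1777 when single libraries were left out. Oas1c and Oas1e summed gave 1.60 (SE 0.34, adjusted p = 0.428). The day 3 and day 6 comparisons share no library, but each shares its libraries with the course comparisons, so those are not independent of one another.

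Among other genes of the pathway, Abce1, an ATP-binding protein that acts in ribosome recycling, differed by −0.09 at day 3 and −0.16 at day 6. Pde12, a phosphodiesterase that degrades the oligoadenylates, differed by −0.01 at day 3 and by 0.51 at day 6 (SE 0.18, adjusted p = 0.229). Neither gene reached 2-fold in any of the 4 comparisons of groups. The further Oas1 copies were near absent, with Oas1h listed at 0 in all libraries and Oas1d at 0.0439 TPM in sham library 2 of day 3 and at 0 in the other 11.

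Upstream, interferon transcripts were scarce. Of 21 interferon genes, 15 were listed at 0 in all 12 libraries, the highest value was 0.407 TPM for Ifng, and 0 passed the filter, so no comparison was made. Il27, the gene of a cytokine known to induce oligoadenylate synthetases in skin, was between 0 and 1.05 TPM across libraries, and of the 4 genes for this cytokine and its receptor 0 passed the threshold in any of the 4 comparisons of groups.

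Of 17 interferon signal genes tested, 2 were lower past the threshold at day 3, Irf7 and Usp18, and 6 were lower with an unadjusted p under 0.05. The median log2 difference of the 17 was −0.06 at day 3 and −0.36 at day 6, beside −0.05 and −0.12 for all genes. Irf7 was at 183, 201 and 199 TPM in sham and 98.8, 22.0 and 42.4 TPM in CAP-treated wounds at day 3. At day 6 it was at 46.7, 38.8 and 37.9 TPM in sham and 51.2, 35.7 and 22.7 TPM in CAP-treated wounds. The groups lay far apart at day 3 and overlapped at day 6. At day 6 none of the 17 passed, and 7 were lower with an unadjusted p under 0.05, among them Irf9 (−0.32), Stat2 (−0.65) and Irf1 (−0.84), all parts of the signal from interferon receptors to their target genes. In the sham course Irf7 (−2.24, adjusted p = 0.00133 by limma) and Usp18 (−1.36, adjusted p = 0.0132) fell. In the CAP course 0 of 17 passed, with a median of −0.25, beside −0.05 for all genes.

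A list of sensors of double-stranded RNA and other nucleic acids, with their adaptors and effectors, gave 2 of 9 lower past the threshold at day 3, Zbp1 (−1.68, SE 0.32) and Dhx58 (−1.05, SE 0.25). A further 4 were lower at day 3 with an unadjusted p under 0.05, among them Ddx58 (−0.94), which encodes RIG-I, Ifih1 (−0.59), which encodes MDA5, and Eif2ak2 (−0.40), which encodes PKR. The median of the 9 was −0.43 at day 3, −0.44 at day 6, −0.40 in the sham course and −0.36 in the CAP course. For all genes it was −0.05, −0.12, 0.00 and −0.05 in the same order. At day 6 none passed, with Dhx58 at −0.90 (SE 0.28) and Ddx58 at −0.62 (SE 0.19). Zbp1 fell in the sham course (−1.38, adjusted p = 0.0249 by limma), where no other of the 9 passed, and in the CAP course none passed.

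Genes with the most similar pattern were sought among the 16160 other genes that averaged 1 TPM or more, by Pearson's r over the 12 libraries with the mean of the 9 genes on the centred log2 scale. The 10 highest were Ifi213 (0.994), Zbp1 (0.991), Apol9a (0.975), Rtp4 (0.970), Bst2 (0.967), Irf7 (0.966), Xaf1 (0.966), Irf9 (0.963), Cmpk2 (0.960) and Ifit2 (0.960). The 12 points share their groups, so r mostly describes the differences between group means, and no p is given. Ifi213 was at 15.6, 14.1 and 16.6 TPM in sham and 7.49, 1.26 and 2.65 TPM in CAP-treated wounds at day 3. At day 6 Ifi213 was at 4.98, 2.76 and 2.57 TPM in sham and 4.22, 1.29 and 1.02 TPM in CAP-treated wounds. Library 1 was the highest of the CAP group on both days.

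Within the family, r of each gene with the mean of the other 8 was 0.904 to 0.983 for Oas1g, Oasl2, Oas2, Oas1a, Oas3, Oas1b and Oasl1. It was 0.485 for Oas1c and −0.01 for Oas1e, again over 12 libraries and with no p. The match before Oas1c reads TTTCNNTTTC on the strand of that gene and lies 7 to 22 bases before the start of Oas1b. The windows of Oasl1 and Oasl2 hold no match, and that of Oas1e was not at hand. Whether the core goes with r was not tested.

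**Figure D5:**
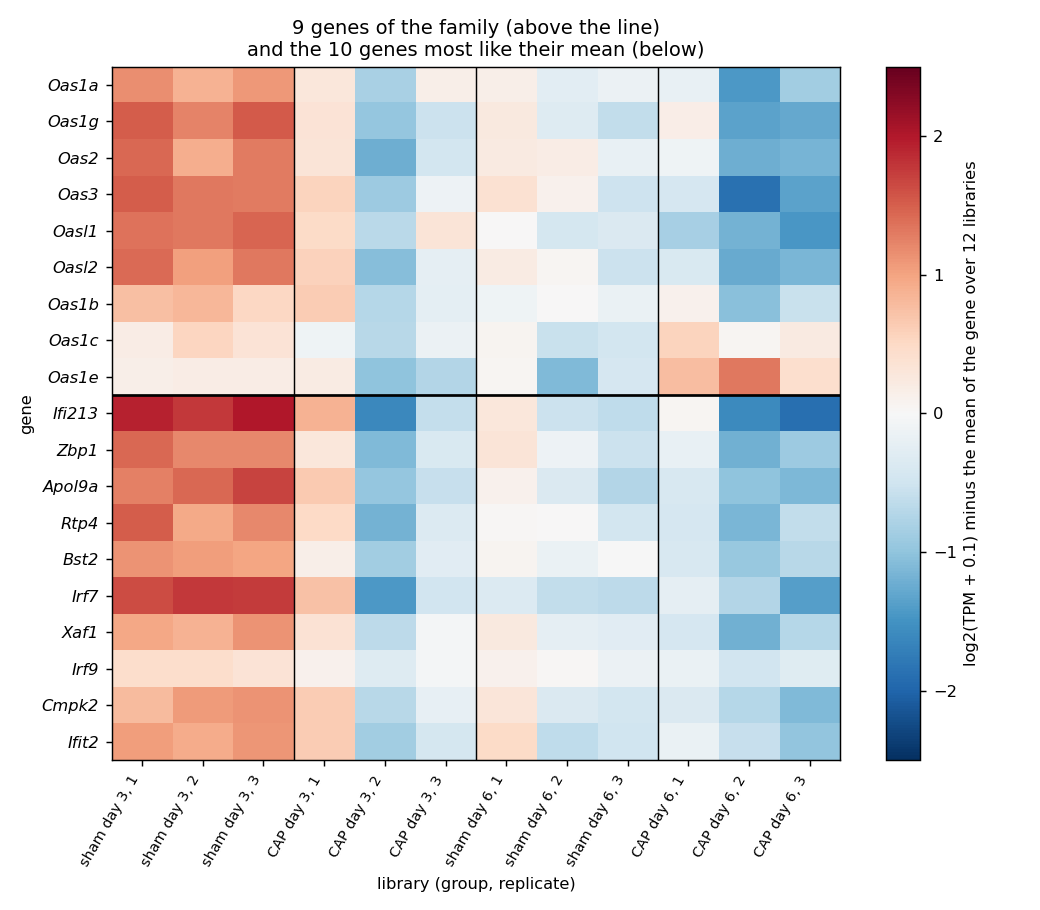
Level of the 9 genes (above the line) and of the 10 genes with the highest r with their mean (below) in each of the 12 libraries, as log2(TPM + 0.1) minus the mean of the gene. Red is above and blue below that mean. Sham libraries of day 3 are red throughout, CAP library 2 of day 3 is blue throughout, and Oas1c and Oas1e depart from the other rows at day 6, with Oas1e at 4.86, 7.11 and 3.76 TPM in the CAP libraries.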

How the data were processed

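RNA of mouse wounds was sequenced as paired-end reads. The authors trimmed with Trimmomatic 0.36 (per the labels' processing notes, which also name mm10), estimated expression with StringTie and deposited TPM for 55487 genes in 12 tables, 1 per library. The aligner and the annotation release are not stated in the sources at hand, and TPM carries no depth, so counting error is unknown. A value of 0.0001 in the tables stands for 0.

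The tables were used as deposited, with 0 other columns of per-sample values. Genes that averaged 0.3 TPM or more in both groups (for the comparison of CAP effects, in at least 1 of the 4 groups) were fitted on log2(TPM + 0.1) with limma 3.58.1 (R 4.3.3, trend, not robust) and adjusted by Benjamini-Hochberg over all genes tested. The fit was tested on simulated data. A call needs an unadjusted p under 0.05 and 2-fold, the study's threshold. All permutation tests are exact and 2-sided. Python 3.11.15 was used for the other steps. Replicate numbers were not shown to pair libraries, so the block is an alternative only.

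All 9 genes are named in the text, with the 10 most alike genes by r and those of written lists where a sentence is about them. The members and lists were chosen with earlier results of these data known. Alternatives were a pseudocount of 1 TPM, no filter on low values, a joint fit, a replicate block, median-ratio scaling and leaving out each library, and, chosen after seeing the data, summing Oas1a with Oas1g and Oas1c with Oas1e. One gene of the pathway list is not reported here.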

Additional observations from a re-analysis of the deposited data

Results flagged for a closer look

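Among the 9 genes, the CAP effect differed between the days for Oas1e (2.01 on the log2 scale) and for Oas1c (1.25), by the test of the difference itself in limma, with an adjusted p of 0.428 for both. The mean of the CAP libraries was below that of sham at day 3 and above it at day 6 for both genes, while single libraries overlapped for Oas1e at day 3 and for Oas1c at day 6. With the TPM of both genes summed the difference was 1.60. No test for a single outlying library was run in groups of 3 libraries, and each library was left out in turn instead.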

How the results depend on the processing

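The direction of every call was the same under all alternatives tried. With a pseudocount of 1 TPM the count of the 9 genes called at day 6 was 1 in place of 2, because Oas3 (−0.99) missed 2-fold. Leaving out single libraries gave 4 to 8 genes at day 3, 1 to 7 at day 6, 6 in each case in the sham course, 1 to 5 in the CAP course and 2 to 5 for the difference between the CAP effects. The sign changed for genes without a call only, in Oas2 in the CAP course (−0.38) without CAP_day3 replicate 1 (range −0.757 to 0.0124 over single libraries), and in Oas3 for the difference between the CAP effects (0.34) without CAP_day3 replicate 2 (−0.0365) or CAP_day6 replicate 1 (range −0.0570 to 0.697). Median-ratio scaling left 2 genes called at day 6 and moved Oas1c there from 0.59 to 0.70, with Oas1e at 1.43. Over all alternatives 522 of the single-gene values kept their direction and their side of the threshold, 25 newly passed it and 10 missed it.

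Same-numbered libraries had correlations of their deviations of −0.11 to 0.22, not above 0.1 in every pair, and at day 6 all 3 correlated best with their own number. With the replicate block 6 genes were called at day 3, 2 at day 6, 6 in the sham course, 3 in the CAP course (Oas3 added, −1.05) and 3 for the difference between the CAP effects (Oas1g added, 1.22).

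Over the whole table, calls numbered 290 at day 3 (154 with the larger pseudocount, 568 unfiltered, 204 to 510 without single libraries), 697 at day 6 (385 with the larger pseudocount, 311 to 1483), 688 in the sham course (405 and, unfiltered, 1156), 507 in the CAP course (299, 842 and up to 886) and 994 for the difference between the effects (580 with the larger pseudocount, 657 to 1777). Depth is unknown, and with 3 libraries a group the exact test cannot go below 0.1.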
